A study of Homo sapiens with 30 samples.

Results

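Cardiomyocytes of day 31 were compared with cells of differentiation day 10 (D10) in cultures of H7, a human embryonic stem cell line, by RNA sequencing. The series holds 30 libraries, 2 for each of 11 time points and 4 sorted populations, and 4 of them belong to these groups. The day 31 cells (2 libraries) and the D10 cells (2 libraries) came from the same protocol. H7 cells at passage 60 received 12 µM CHIR99021, an inhibitor of the kinase GSK3 that switches WNT signalling on, for 24 hours, and then 5 µM IWP4, a blocker of WNT secretion, for 2 days, both in medium without insulin, followed by medium with insulin until collection. The day 31 cells were purified on a Percoll density gradient. For D10 cells no such step is given, so time in culture and purification cannot be told apart here. The labels name no reporter or transgene, and both groups come from 1 cell line grown on coated plates, without the other tissues of a heart. Total RNA was depleted of ribosomal RNA.

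The deposited table gives 1 value per gene and time point in FPKM, fragments scaled by transcript length and library size, which allows levels of different genes to be compared. The libraries of a group are pooled in it, so differences are given without a test. All genes with at least 5 FPKM in cardiomyocytes or at D10 were taken, 11982 of 41495 entries, with D15 left out of the choice. A gene counted as higher or lower where its log2(FPKM + 1) values were 1 or more apart, which is about 2-fold for well-expressed genes and understates the change of low ones. Differences below are on that log2 scale, cardiomyocytes minus D10, and levels are in FPKM. At the edge of the 5 FPKM limit, RIPPLY3 was kept with 0.195 FPKM in cardiomyocytes and 5.00 at D10, and SNX22 was left out with 4.08 FPKM in cardiomyocytes and 4.997 at D10.

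Heart muscle shortens when myosin of the thick filament pulls on actin of the thin filament, a step that calcium released from the sarcoplasmic reticulum switches on through the troponin complex. The first cardiomyocytes of an embryo divide, rely largely on glucose and use foetal forms of many contractile proteins. As the heart grows they leave the cell cycle, build more sarcomeres and calcium stores, exchange protein forms and turn to fatty acids for energy.

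Of the 11982 genes, 1318 (11%) were higher in cardiomyocytes than at D10 and 760 (6.34%) were lower, together 17.3%. The median difference over all of them was 0.0057, the value to set beside each list median below. Each list count below is to be set beside the shares of 11% higher and 6.34% lower. A count near these shares is no result about its list. A gene that reached 5 FPKM in 1 column only was bound to be higher there, so it adds no support to a list count or median. This holds for every list below. At 8-fold, 131 genes were higher and 89 lower. When both columns were rescaled to the same total over protein-coding genes, which moves every difference by 0.19, the split became 1023 higher and 1124 lower, so the surplus of higher genes depends on the deposited scale. The neighbouring steps, which share the D10 column, were counted in the same way. D10 against D8 had 145 genes higher (1.28%) and 199 lower (1.76%), together 3.05%. D15 against D10 had 871 higher (7.4%) and 1914 lower (16.3%), together 23.6%. Among genes under 0.3 FPKM, the commonest ratio to D10 was 1.04 for cardiomyocytes and 1.48 for D15, and read counts per library are not given.

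**Figure D1:**
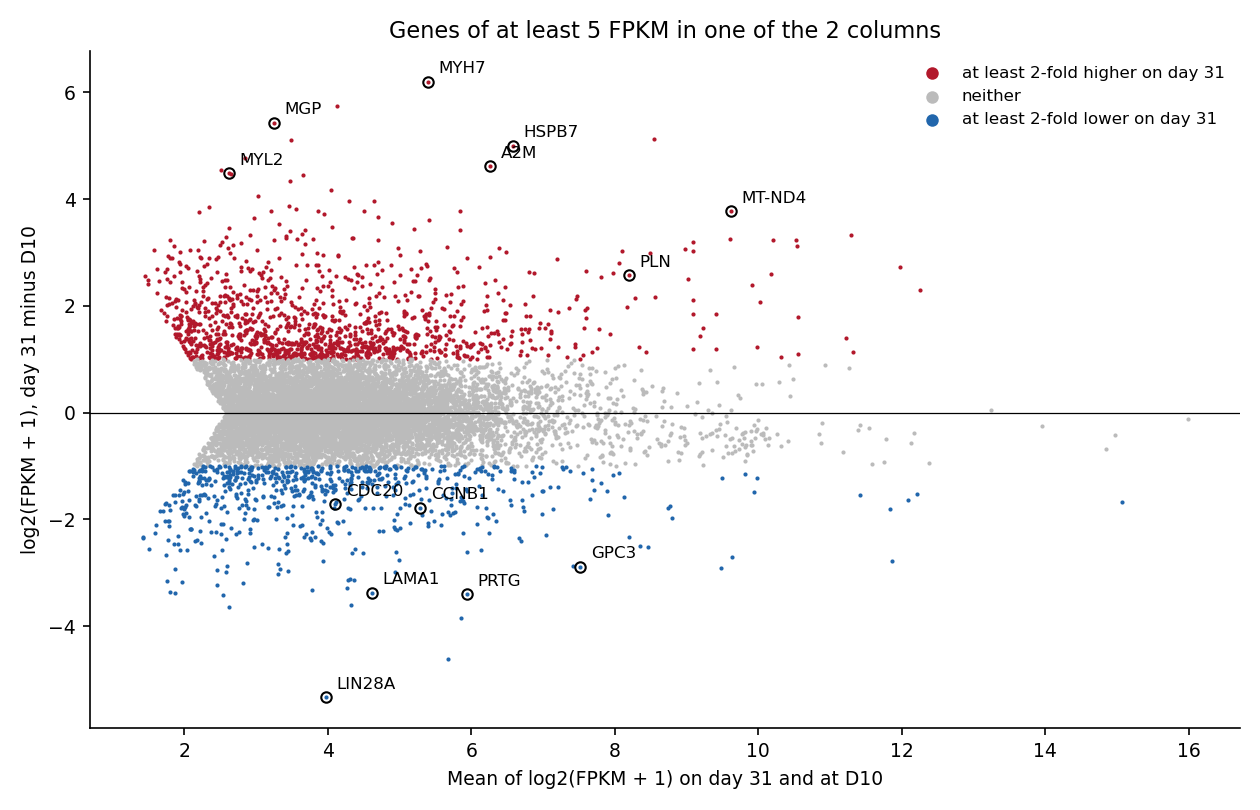
Difference in log2(FPKM + 1) between cardiomyocytes of day 31 and D10 (vertical axis) against the mean of both (horizontal axis), 1 point per gene of at least 5 FPKM in one column and above 0 in both. Red points are at least 2-fold higher on day 31 and blue points at least 2-fold lower; MYH7 (6.20) and LIN28A (-5.33) lie at the upper and lower ends.

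MYH7, MYL2 and PLN, taken here as markers of maturation, were higher in cardiomyocytes. Other genes of ventricular muscle did not all follow, such as the connexin GJA1, with 26.7 FPKM in cardiomyocytes and 51.5 at D10. MYH7, the slow beta heavy chain of cardiac myosin, had 359.9 FPKM in cardiomyocytes and 3.898 at D10. Its difference of 6.20 was the largest among the protein-coding genes ranked. MYL2, the ventricular regulatory light chain, had 28.2 FPKM in cardiomyocytes and 0.2997 at D10 (4.49). PLN, phospholamban, which holds back the calcium pump of the sarcoplasmic reticulum, had 717 FPKM in cardiomyocytes and 119 at D10 (2.58). MYH7 and MYL2 were thus low or near 0 at D10, and PLN was already abundant there. General cardiac markers were present in both groups. TNNT2, cardiac troponin T, had 2785 FPKM in cardiomyocytes and 807 at D10. NKX2-5, an early cardiac transcription factor, had 129 FPKM in cardiomyocytes and 54.6 at D10. In such bulk samples, a larger share of cardiomyocytes and more of an RNA in each of them cannot be told apart.

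These genes differed in when they changed. MYH7 had 0.758, 2.25, 3.898, 161 and 359.9 FPKM at D6, D8, D10, D15 and day 31. MYL2 had 0.484, 0.3898, 0.2997, 3.19 and 28.2 FPKM at the same points, and PLN 100.3, 126, 119, 156 and 717 FPKM. At D15 the difference from D10 was already 5.05 for MYH7, while it was 1.69 for MYL2 and 0.38 for PLN. CSRP3, a stretch-sensing protein of the Z-disc, had 1.64, 9.7, 14.5, 57.3 and 211 FPKM, with a gain in both intervals.

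**Figure D2:**
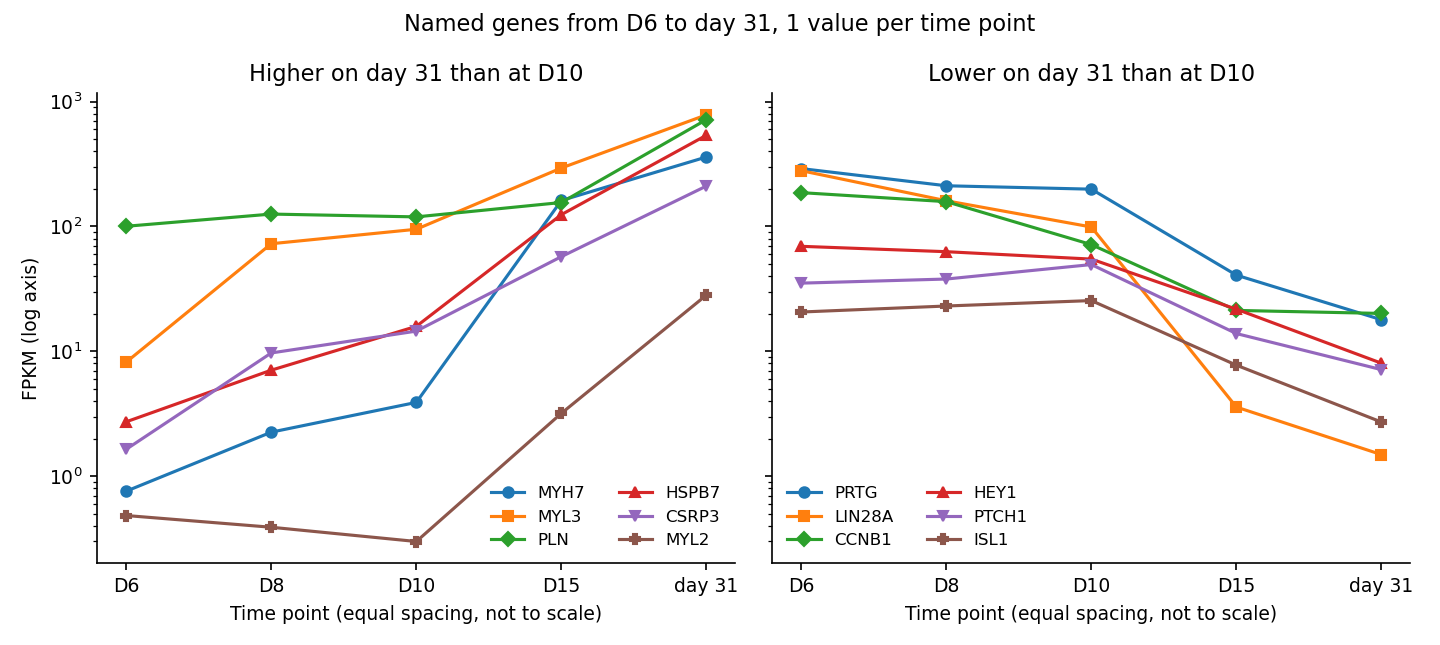
FPKM (log axis) of 6 genes higher and 6 genes lower on day 31 than at D10, at D6, D8, D10, D15 and day 31, with 1 value per time point. MYH7 climbs most between D10 and D15, PLN after D15, and LIN28A has its steepest drop between D10 and D15.

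Of the thick filament genes, 9 of 11 past the limit were called higher and 0 lower, with a median difference of 2.53. Of the higher ones, MYH7 and MYL2 passed the limit only through the cardiomyocyte column. The 9 include MYL9, which is counted among the higher smooth muscle markers too, with 276 FPKM in cardiomyocytes and 43.9 at D10. MYL3, the ventricular essential light chain, had 783 FPKM in cardiomyocytes and 94.9 at D10. MYBPC3, the cardiac myosin-binding protein C, had 251 FPKM in cardiomyocytes, against 30.5 at D10. The forms typical of atrium and of embryonic heart were higher too. MYH6, the alpha heavy chain, had 2123 FPKM in cardiomyocytes and 504 at D10. MYL4, the atrial essential light chain, had 1298 FPKM in cardiomyocytes and 358 at D10. MYL7, the atrial regulatory light chain, had 3792 FPKM in cardiomyocytes and 1720.2 at D10. MYL12A, a light chain of non-muscle myosin, did not reach 2-fold, with 137 FPKM in cardiomyocytes and 129 at D10.

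Of the thin filament genes, 10 of 16 past the limit were higher and 0 lower (median 1.82). LMOD2, which lengthens cardiac thin filaments, had 91.1 FPKM in cardiomyocytes and 6.3 at D10. TMOD1, which caps their pointed ends, had 33.8 FPKM in cardiomyocytes, against 3.42 at D10. FHOD3, a formin that builds cardiac actin filaments, had 108 FPKM in cardiomyocytes and 15.1 at D10. The calcium sensor TNNC1, cardiac troponin C, had 1014 FPKM in cardiomyocytes, against 127 at D10. Tropomyosins, which lie along the filament and cover its myosin sites, stayed under 2-fold. TPM1 had 3293 FPKM in cardiomyocytes and 1836 at D10, TPM2 had 245 in cardiomyocytes and 191 at D10, and TPM3 had 63.7 in cardiomyocytes and 111 at D10.

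Of the Z-disc and M-band genes, 20 of 26 were higher and 1 lower (median 2.03). ACTN2, the alpha-actinin that cross-links actin at the Z-disc, had 189.5 FPKM in cardiomyocytes and 33.1 at D10. LDB3, a Z-disc scaffold that binds it, had 209 FPKM in cardiomyocytes, against 26.7 at D10. MYOM1, which links myosin at the M-band, had 167 FPKM in cardiomyocytes and 21.5 at D10. TCAP, which anchors titin, had 39.5 FPKM in cardiomyocytes and 4.11 at D10. TRIM63, a ubiquitin ligase of the M-band, had 41.02 FPKM in cardiomyocytes, against 1.88 at D10. The gene counted as lower was TTN, titin, the spring that spans from Z-disc to M-band, listed at 0 in cardiomyocytes and at D15 but at 203 FPKM at D10. Exact zeros of so abundant a transcript may be failed estimates, and its fold is left out. CCDC141, chosen after its values were seen, was likewise listed at 0 in cardiomyocytes, against 66.05 FPKM at D10.

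Genes that tie the sarcomere to the cell membrane were mostly higher, 11 of 14 past the limit, with 0 lower (median 1.44). Of the higher ones, LAMA2, LAMA4, SGCA and DYSF passed it only through the cardiomyocyte column. LAMA2, the laminin chain of the muscle basement membrane, had 52.8 FPKM in cardiomyocytes and 2.93 at D10. LAMA4, another laminin chain of muscle, had 32.9 FPKM in cardiomyocytes, against 3.99 at D10. DMD, dystrophin, had 144 FPKM in cardiomyocytes and 37.3 at D10. Of the intercalated disc genes, which join cardiomyocytes end to end, 4 of 12 were higher and 1 lower (median 0.59). CDH2, the cadherin of these junctions, had 159 FPKM in cardiomyocytes and 54.7 at D10. LRRC10, a heart-specific leucine-rich repeat protein, had 61.9 FPKM in cardiomyocytes, against 5.54 at D10. DSC2, a desmosomal cadherin, was the lower gene, with 17.2 FPKM in cardiomyocytes and 43.6 at D10. The gap junction genes split. GJA1, the main connexin of ventricular muscle, had 26.7 FPKM in cardiomyocytes and 51.5 at D10, under 2-fold. GJA3, a connexin best known from the lens, had 57.8 FPKM in cardiomyocytes, against 1.67 at D10 (4.46).

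Promoters of contractile genes are shown because several hold the letters that muscle transcription factors are known to bind. Each stretch is the 150 bases before the annotated start, from RefSeq on GRCh38.p14, read on the gene's strand. Capitals mark the CArG box (the site of SRF), the MEF2 consensus and the TATA box TATAAA, on either strand. ACTC1, cardiac actin, is read at chr15:34795550-34795699 (minus strand), and ACTA1, skeletal actin, at chr1:229434095-229434244 (minus strand). MYL7 is read at chr7:44141333-44141482 (minus strand) and MYBPC3 at chr11:47352703-47352852 (minus strand).
ACTC1: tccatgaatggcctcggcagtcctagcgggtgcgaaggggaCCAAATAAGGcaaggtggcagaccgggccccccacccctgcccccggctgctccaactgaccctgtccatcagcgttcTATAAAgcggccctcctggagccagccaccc
ACTA1: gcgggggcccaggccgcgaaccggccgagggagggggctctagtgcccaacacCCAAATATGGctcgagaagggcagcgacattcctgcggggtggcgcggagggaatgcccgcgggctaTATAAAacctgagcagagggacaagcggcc
MYL7: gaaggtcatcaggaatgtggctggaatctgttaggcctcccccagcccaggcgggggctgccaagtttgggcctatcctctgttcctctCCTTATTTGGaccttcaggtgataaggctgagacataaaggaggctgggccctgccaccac
MYBPC3: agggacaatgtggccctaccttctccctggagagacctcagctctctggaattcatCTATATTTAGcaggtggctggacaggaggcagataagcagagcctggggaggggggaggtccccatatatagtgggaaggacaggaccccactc
In windows of 250 bases before to 50 bases after the start, a CArG box was found in 7 of 47 promoters of the thick filament, thin filament, Z-disc and M-band lists (14.9%). It was found in 1.13% of the 8407 promoters of genes past the 5 FPKM limit and in 1.29% of all 27305. A MEF2 consensus was found in 8 of the 47 (17%), in 1.57% of promoters past the limit and in 3.09% of all. Among 815 promoters of protein-coding genes called higher, 2.33% held a CArG box and 4.66% a MEF2 consensus. Of the genes shown, ACTC1 had 2202 FPKM in cardiomyocytes and 419 at D10, and ACTA1 had 187 in cardiomyocytes and 16.6 at D10. A match describes letters and is not a measured binding site.

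Within pairs of related contractile genes, the share of the ventricular or adult form shifted by unequal amounts. MYH7 made up 14.5% of the summed FPKM of MYH7 and MYH6 in cardiomyocytes and 0.767% at D10. MYL2 made up 0.739% of MYL2 and MYL7 in cardiomyocytes and 0.0174% at D10. MYL3 made up 37.6% of MYL3 and MYL4 in cardiomyocytes and 21.0% at D10. In all these pairs the atrial form held the larger share in both groups. TNNI3, the adult cardiac troponin I, had 52.7 FPKM in cardiomyocytes and 13.7 at D10. TNNI1, the foetal form, had 1038 FPKM in cardiomyocytes and 286 at D10, so TNNI3 made up 4.83% of the pair in cardiomyocytes and 4.55% at D10. Both genes were higher, and the share at D8 had been 2.78%. ACTA1 made up 7.83% of ACTA1 and ACTC1 in cardiomyocytes and 3.82% at D10, but it had been 8.21% at D8, and against that value the direction turns round. MYH6 and MYH7, and the actins, are near-identical in their coding sequences, so the split of fragments between them is uncertain.

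**Figure D3:**
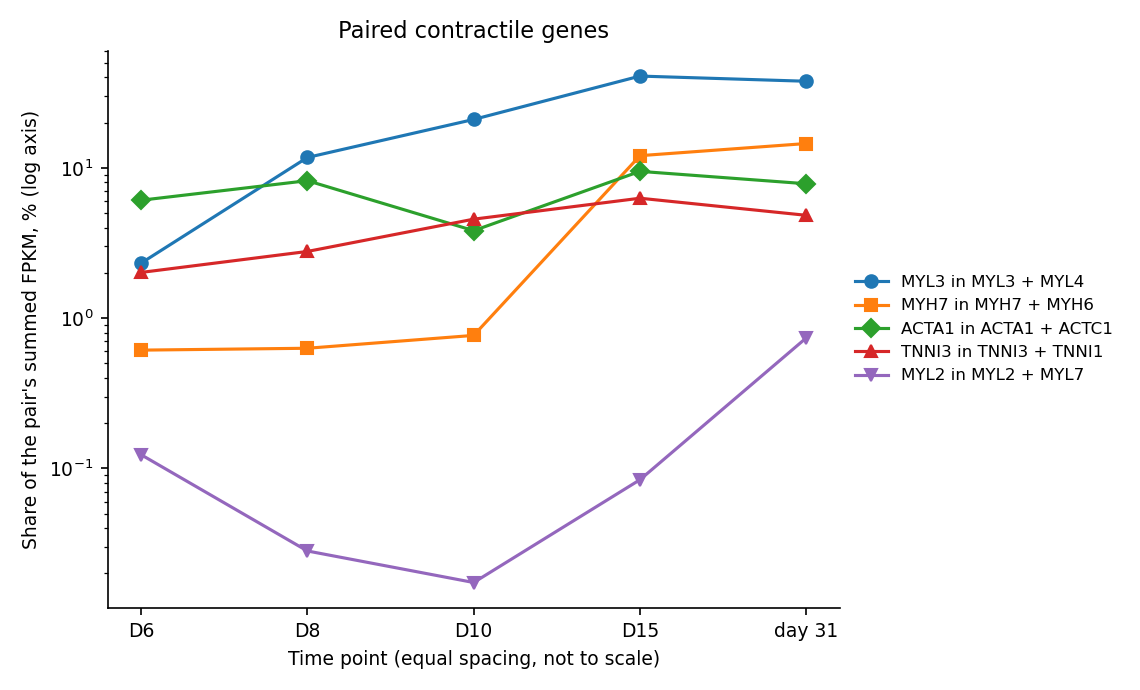
Share of the first gene in the summed FPKM of each pair (percent, log axis) at D6, D8, D10, D15 and day 31. MYH7 lies at 0.767% at D10, 12.0% at D15 and 14.5% on day 31, MYL2 stays under 1%, and TNNI3 lies at 4.55% at D10, 6.27% at D15 and 4.83% on day 31.

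Genes of calcium release and uptake were mostly higher, 19 of 23 past the limit, with 0 lower (median 1.69). Of the higher ones, SLN, CASQ1, JPH1, CAMK2B and SRL passed it only through the cardiomyocyte column. The 19 include CORIN, a protease described below that does not itself handle calcium. CACNA1C, the pore of the L-type calcium channel that triggers release, had 108 FPKM in cardiomyocytes and 14.7 at D10. RYR2, the release channel itself, had 75.9 FPKM in cardiomyocytes, against 27.9 at D10. Its partner TRDN, triadin, had 96.5 FPKM in cardiomyocytes and 19.7 at D10. HRC, a calcium-binding protein of the store, had 65.4 FPKM in cardiomyocytes and 18.5 at D10. JPH2, which holds the store close to the surface membrane, had 41.2 FPKM in cardiomyocytes, against 17.3 at D10. For removal of calcium, the pump ATP2A2 had 303 FPKM in cardiomyocytes and 137 at D10. The sodium-calcium exchanger SLC8A1 had 376 FPKM in cardiomyocytes and 82.2 at D10. PLN was thus 6.01 times its D10 level and the pump it restrains 2.21 times, as ratios of FPKM. CASQ2, the main calcium buffer of the adult store, was under the limit in both groups, with 0.844 FPKM in cardiomyocytes and 0.241 at D10.

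Ion channels of the action potential moved both ways, 10 of 18 past the limit higher and 3 lower (median 1.11). With a limit of 1 FPKM, 13 of 28 were higher and 3 lower, with a median of 0.84. KCNQ1, given next, passed the 5 FPKM limit only through the cardiomyocyte column. KCNQ1, which carries the slow repolarising potassium current, had 13.8 FPKM in cardiomyocytes and 1.01 at D10. KCNH2, which carries the rapid one, had 29.6 FPKM in cardiomyocytes, against 14.1 at D10. HCN4, the pacemaker channel, had 57.1 FPKM in cardiomyocytes and 11.97 at D10. FXYD1, a regulator of the sodium pump, had 47.7 FPKM in cardiomyocytes and 5.35 at D10. The lower genes were of other currents. KCNJ3, a potassium channel opened by muscarinic signalling, had 5.56 FPKM in cardiomyocytes and 14.98 at D10. KCNIP2, a subunit of the transient outward channel, had 8.53 FPKM in cardiomyocytes, against 21.6 at D10. CACNA1H, a T-type calcium channel of embryonic heart, had 6.95 FPKM in cardiomyocytes and 16.5 at D10. KCNJ2, which sets the resting potential of adult ventricular cells, was under the limit, with 1.096 FPKM in cardiomyocytes and 1.97 at D10.

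Genes that mark chambers and the pacemaker were mostly higher, 13 of 20 past the limit, with 3 lower (median 1.42). SLN, sarcolipin, an atrial regulator of the calcium pump, had 11.5 FPKM in cardiomyocytes and 3.92 at D10. NPPA, the atrial natriuretic peptide, had 95.9, 761 and 226 FPKM at D10, D15 and day 31. NPPB, its ventricular relative, had 78.8 FPKM in cardiomyocytes and 73.5 at D10, under 2-fold. CORIN, the protease that activates these peptides, had 78.5 FPKM in cardiomyocytes, against 7.41 at D10 (3.24). IRX4, a homeobox factor restricted to ventricle, had 23.1 FPKM in cardiomyocytes and 1.38 at D10.

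Cardiac transcription factors also moved both ways, 14 of 37 past the limit higher and 8 lower (median 0.60). HEY2, a repressor made in the compact ventricular wall, had 9.95 FPKM in cardiomyocytes and 1.92 at D10. PRDM16 had 26.3 FPKM in cardiomyocytes and 2.65 at D10. TBX20, a T-box factor of working myocardium, had 242 FPKM in cardiomyocytes, against 27.5 at D10, and TBX5 had 62.5 in cardiomyocytes and 22.04 at D10. FHL2, a muscle cofactor, had 148 FPKM in cardiomyocytes and 11.2 at D10. TBX3, a factor of the conduction system, had 39.9 FPKM in cardiomyocytes and 13.5 at D10. Among factors of the early cardiac programme, NKX2-5, given above, passed 2-fold, and GATA4, MEF2C and SRF did not. GATA4 had 98.4 FPKM in cardiomyocytes and 61 at D10, MEF2C had 39.2 in cardiomyocytes and 43.3 at D10, and SRF had 37 in cardiomyocytes and 29.02 at D10. Factors of progenitors and of the embryonic tube were lower. ISL1, which marks second heart field progenitors, had 2.71 FPKM in cardiomyocytes and 25.5 at D10. HEY1, a target of NOTCH, had 8.03 FPKM in cardiomyocytes, against 54.8 at D10. HAND1 had 14.9 FPKM in cardiomyocytes and 40.97 at D10. NR2F1, an atrial factor, had 2.27 FPKM in cardiomyocytes and 17.7 at D10, whereas its relative NR2F2 had 17.1 in cardiomyocytes and 15.6 at D10.

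Receptors and kinase anchors for autonomic signals were higher in 6 of 20 genes past the limit and lower in 1 (median 0.60). CHRM2, the muscarinic receptor of the heart, had 54.4 FPKM in cardiomyocytes and 9.48 at D10. AKAP6, which holds protein kinase A at the nuclear envelope and calcium store, had 40.9 FPKM in cardiomyocytes and 2.93 at D10. SPHKAP, another anchor of that kinase, had 28.5 FPKM in cardiomyocytes, against 0.334 at D10 (4.47). PDE3A, which breaks down cyclic AMP, was the lower gene, with 8.54 FPKM in cardiomyocytes and 25.4 at D10. Of secreted factors and their receptors, 8 of 23 were higher and 1 lower (median 0.62). ERBB4, the neuregulin receptor of cardiomyocytes, had 90.6 FPKM in cardiomyocytes and 9.85 at D10. Its partner ERBB2 had 123 FPKM in cardiomyocytes and 44.9 at D10. The lower gene was ANGPT1, a ligand of the vessel receptor TEK, with 5.77 FPKM in cardiomyocytes, against 57.5 at D10 (-3.11).

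Genes of small heat shock proteins and protein quality control held some of the largest differences. Of 16 past the limit, 11 were higher and 0 lower (median 1.69). Not all of them are chaperones: the higher genes include ubiquitin ligases such as TRIM63, given above. HSPB7, a small heat shock protein of heart muscle, had 2.72, 7.06, 15.8, 124 and 538 FPKM at D6, D8, D10, D15 and day 31. HSPB3 had 64.9 FPKM in cardiomyocytes and 0.904 at D10 (5.11). CRYAB, alpha-B crystallin, which protects desmin filaments, had 97.8 FPKM in cardiomyocytes, against 5.33 at D10. HSPB1 had 486 FPKM in cardiomyocytes and 76.6 at D10. BAG3, their co-chaperone at the Z-disc, had 28.6 FPKM in cardiomyocytes and 9.38 at D10. General chaperones stayed under 2-fold. HSPA1A had 16.8 FPKM in cardiomyocytes and 11.5 at D10, and HSPA8 had 319.9 in cardiomyocytes and 476 at D10; HSPA1A has a near-identical copy, HSPA1B, so its level is uncertain.

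The promoters of HSPB7 and HSPB3 are shown because both hold a MEF2 consensus and a TATA box (capitals). HSPB7 is read at chr1:16018044-16018193 (minus strand) and HSPB3 at chr5:54455549-54455698 (plus strand), both from RefSeq on GRCh38.p14.
HSPB7: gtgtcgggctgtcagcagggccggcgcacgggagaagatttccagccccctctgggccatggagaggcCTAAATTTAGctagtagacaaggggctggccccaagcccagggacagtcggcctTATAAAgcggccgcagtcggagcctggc
HSPB3: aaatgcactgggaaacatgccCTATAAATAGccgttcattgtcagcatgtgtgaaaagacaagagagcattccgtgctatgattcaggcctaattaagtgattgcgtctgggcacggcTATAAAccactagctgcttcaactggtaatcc
A MEF2 consensus was found in 5 of 17 promoter windows of the small heat shock and protein quality list (29.4%). It was found in 1.57% of those of all genes past the limit. TATAAA was found in 7 of the 17 (41.2%), in 5.19% of promoters past the limit and in 12% of all. Among promoters of all protein-coding genes called higher, 4.66% held a MEF2 consensus and 9.94% held TATAAA.

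**Figure D4:**
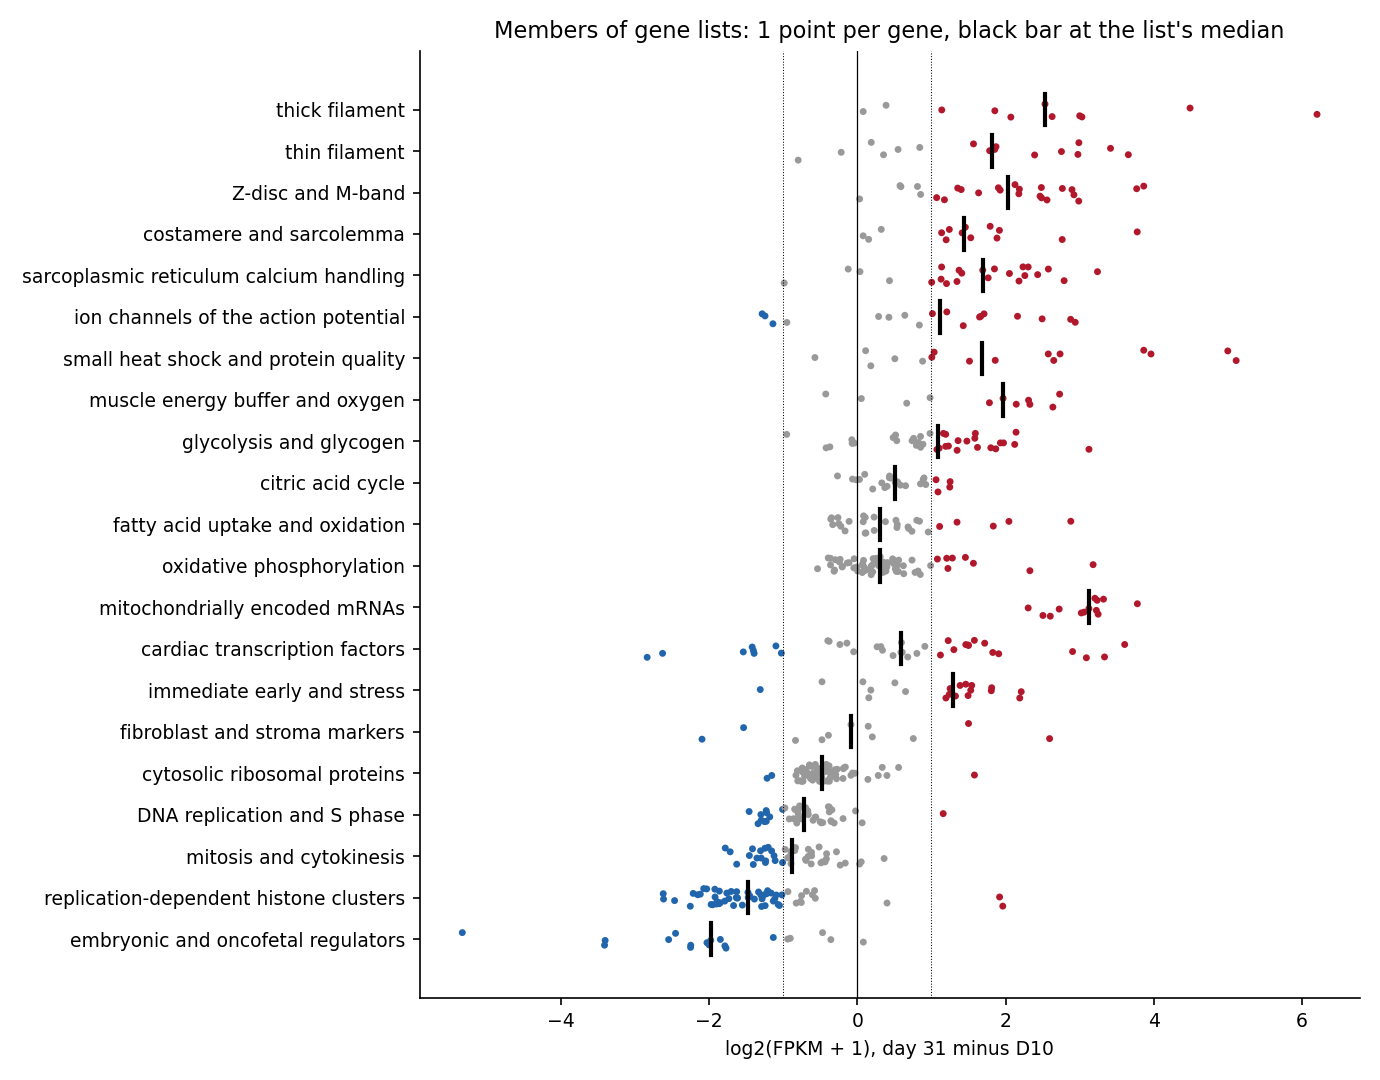
Difference in log2(FPKM + 1) between day 31 and D10 for members of 21 gene lists that passed the 5 FPKM limit and were above 0 in both columns, with red points at 1 or more, blue points at -1 or less and a black bar at each list's median. Muscle lists lie to the right, with a median of 2.53 for the thick filament, and embryonic regulators to the left, with -1.98.

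Energy genes differed by pathway. Genes of the muscle energy buffer and of oxygen storage were higher in 7 of 11 cases past the limit (median 1.97). Beside creatine genes and myoglobin, this list holds AK1, AK4, AMPD3 and CYB5R3, all of them higher. The creatine genes CKB, GATM, GAMT and SLC6A8 were not called, with differences of -0.43, 0.05, 0.67 and 0.98. CKM, muscle creatine kinase, had 176 FPKM in cardiomyocytes and 25.6 at D10. MB, myoglobin, had 99.4 FPKM in cardiomyocytes and 19.2 at D10. Of the glycolysis and glycogen genes, 19 of 36 were higher and 0 lower (median 1.09). LDHA, the lactate dehydrogenase subunit of glycolytic tissue, had 653 FPKM in cardiomyocytes and 147 at D10. LDHB, the subunit typical of heart, had 376 FPKM in cardiomyocytes and 503 at D10, under 2-fold. HK1, the hexokinase of foetal heart, had 169.8 FPKM in cardiomyocytes, against 45.7 at D10. SLC2A4, the insulin-responsive glucose transporter, had 8.73 FPKM in cardiomyocytes and 5.96 at D10, also under 2-fold.

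Fatty acid genes moved less, with 5 of 30 past the limit higher, 0 lower and a median of 0.30. FABP3, the fatty acid carrier of heart, had 395 FPKM in cardiomyocytes and 52.7 at D10. CPT1B, the muscle gate for fatty acids into mitochondria, had 16.7 FPKM in cardiomyocytes and 21.7 at D10. ACADVL, which starts the breakdown of long chains, had 149.8 FPKM in cardiomyocytes and 191 at D10. The fatty acid transporter CD36 was under the limit, with 3.01 FPKM in cardiomyocytes and 0.721 at D10. In the citric acid cycle 4 of 26 were higher and 0 lower (median 0.51). Among regulators of metabolism, 6 of 20 were higher and 1 lower. PPARGC1A, a coactivator of mitochondrial genes, had 41.2 FPKM in cardiomyocytes and 11.8 at D10. The nuclear receptor ESRRG, its partner, had 29.7 FPKM in cardiomyocytes and 9.28 at D10. PPARA, the receptor that drives fatty acid genes in adult heart, had 10.7 FPKM in cardiomyocytes and 10.1 at D10. KLF15, a factor of adult cardiac metabolism, was the lower gene, with 1.74 FPKM in cardiomyocytes and 6.94 at D10.

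Genes of oxidative phosphorylation differed by the genome that holds them. Of the nuclear ones, a list that also holds mitochondrial carriers and CKMT2, 8 of 76 past the limit were higher and 0 lower (median 0.30). The higher count is close to the 11% over all genes past the limit. COX6A2, the muscle form of a cytochrome oxidase subunit, had 19.9 FPKM in cardiomyocytes and 1.298 at D10. The 8 include SLC25A4, the carrier that exchanges ADP and ATP, with 176 FPKM in cardiomyocytes and 58.8 at D10. They also include CKMT2, the creatine kinase of mitochondria, with 20.5 FPKM in cardiomyocytes and 3.28 at D10. CKMT2 is counted in the energy buffer list too. All 13 mRNAs of the mitochondrial genome, a list added after their values were seen, were higher, by 2.31 to 3.78 (median 3.12). MT-ND4, a subunit of complex I, had 2904 FPKM in cardiomyocytes and 211 at D10. MT-CO1, the core of cytochrome oxidase, had 10329.5 FPKM in cardiomyocytes and 1563 at D10. The 13 together held 7.62% of all FPKM in cardiomyocytes and 0.943% at D10. From hESC to D8 this share lay between 0.438% and 1.92%, and at D15 it was 7.61%, so the step lay between D10 and D15. At the same step the ribosomal RNA entry MT-RNR1 went to a listed 0 in cardiomyocytes and at D15, against 18389 FPKM at D10. The other such entry, MT-RNR2, was listed at 0 at all 11 time points. Such zeros may be failed estimates, as for TTN. Depletion of ribosomal RNA also acts on these transcripts, and the part of either in the result was not tested.

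**Figure D5:**
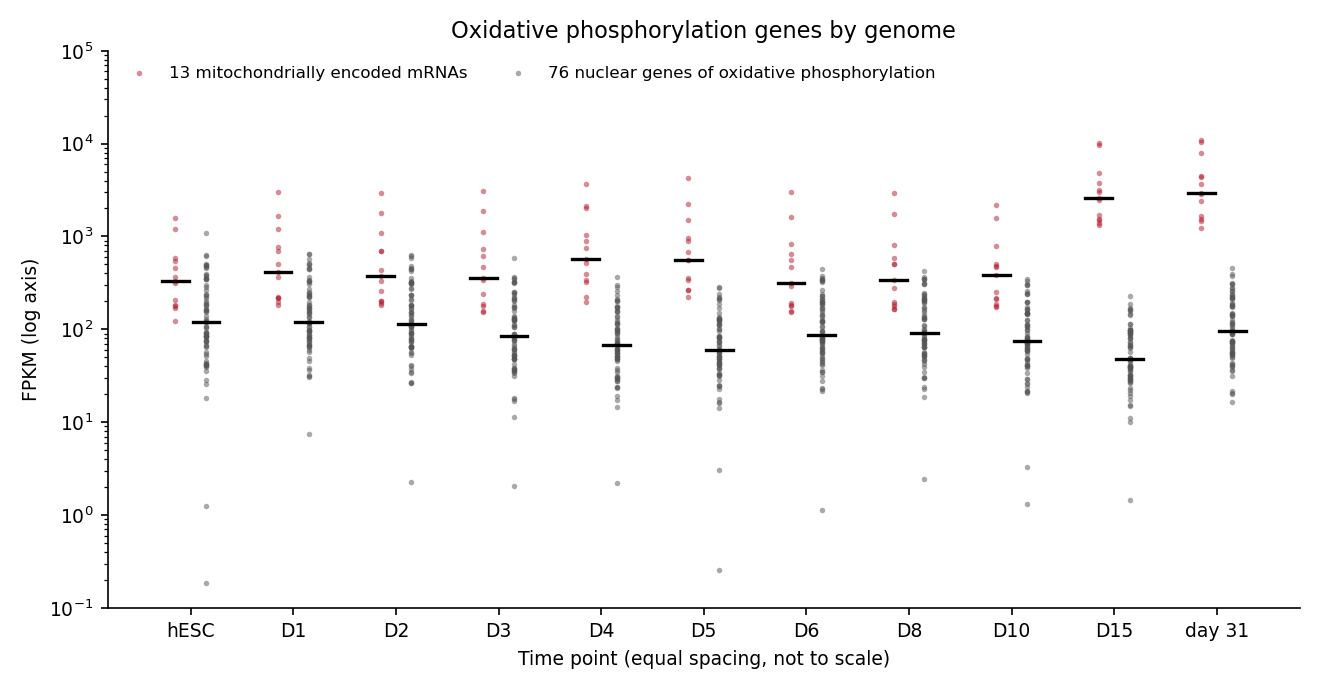
FPKM (log axis) of the 13 mitochondrially encoded mRNAs (red, left of each pair) and of 76 nuclear genes of oxidative phosphorylation, carriers and CKMT2 included (grey, right) at each of 11 time points, with black bars at the medians; values of 0 are not drawn. The red median is 2904 on day 31 and 384 at D10, and the grey one 95.3 on day 31 and 74.8 at D10.

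Of the regulators of the early embryo, 0 of 19 past the limit were higher and 14 lower (median -1.98). Of the genes named next, LIN28A, IGDCC3, DPPA4 and SALL4 passed the limit only through the D10 column. LIN28A, an RNA-binding protein that blocks maturation of let-7 microRNAs, had 279.8, 161, 99, 3.57 and 1.49 FPKM at D6, D8, D10, D15 and day 31. Its difference of -5.33 was the largest decrease among the protein-coding genes ranked. Its paralog LIN28B had 5.504 FPKM in cardiomyocytes and 34.6 at D10. HMGA2, a chromatin protein and let-7 target, had 36.9 FPKM in cardiomyocytes and 82.2 at D10. PRTG, protogenin, a receptor of the early embryo, had 17.9 FPKM in cardiomyocytes, against 199 at D10. Its relative IGDCC3 had 4.73 FPKM in cardiomyocytes and 68.9 at D10. DPPA4, a chromatin factor of pluripotent cells, had 0.789 FPKM in cardiomyocytes, against 18.02 at D10. SALL4, a factor of stem cells, had 2.71 FPKM in cardiomyocytes and 20.6 at D10. IGF2BP1, which binds IGF2 mRNA, stayed under 2-fold, with 41.5 FPKM in cardiomyocytes and 57.8 at D10.

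Imprinted genes went both ways, 2 of 13 past the limit higher and 2 lower. IGF2, a foetal growth factor, had 705 FPKM in cardiomyocytes and 100.3 at D10. PEG10 had 168 FPKM in cardiomyocytes and 45.2 at D10. MEST had 27.8 FPKM in cardiomyocytes, against 169.9 at D10, and NNAT, neuronatin, had 6.75 in cardiomyocytes and 22.1 at D10. H19, the noncoding neighbour of IGF2, had 1772 FPKM in cardiomyocytes and 1151 at D10, under 2-fold.

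Mitosis genes were lower in part, 17 of 46 past the limit, with 0 higher (median -0.88). CCNB1, the cyclin that drives mitosis, had 187, 158, 71.5, 21.3 and 20.1 FPKM at D6, D8, D10, D15 and day 31. CDC20, an activator of the anaphase-promoting complex, had 8.502 FPKM in cardiomyocytes and 30.2 at D10. MAD2L1, of the spindle checkpoint, had 9.64 FPKM in cardiomyocytes and 31.9 at D10. CDK1, the mitotic kinase, had 22 FPKM in cardiomyocytes, against 55.5 at D10. Other genes of the same phase hardly differed. MKI67, a general marker of cycling cells, had 16.7 FPKM in cardiomyocytes and 16.3 at D10. ANLN, of the cleavage furrow, had 26.2 FPKM in cardiomyocytes and 25.2 at D10. BUB1, a checkpoint kinase, had 22.1 FPKM in cardiomyocytes and 24.8 at D10. With D8 in place of D10, the list's median was -1.81 and 41 of 46 were lower.

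Promoters of mitotic genes are shown because many of them hold the same short elements. Capitals mark CCAAT, the site of NF-Y, and TTTGAA, the cell cycle genes homology region (CHR), on either strand, in the 150 bases before the start (RefSeq, GRCh38.p14). CDC20 is read at chr1:43358831-43358980 (plus strand). CCNB2, another mitotic cyclin, is read at chr15:59104996-59105145 (plus strand). CKS2, a subunit of cyclin-dependent kinases, is read at chr9:89311045-89311194 (plus strand).
CDC20: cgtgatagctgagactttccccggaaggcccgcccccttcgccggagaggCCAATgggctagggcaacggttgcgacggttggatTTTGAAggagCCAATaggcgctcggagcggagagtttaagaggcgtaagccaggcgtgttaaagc
CCNB2: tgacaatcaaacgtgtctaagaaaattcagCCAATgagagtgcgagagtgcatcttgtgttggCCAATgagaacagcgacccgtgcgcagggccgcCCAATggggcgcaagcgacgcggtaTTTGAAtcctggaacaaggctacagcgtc
CKS2: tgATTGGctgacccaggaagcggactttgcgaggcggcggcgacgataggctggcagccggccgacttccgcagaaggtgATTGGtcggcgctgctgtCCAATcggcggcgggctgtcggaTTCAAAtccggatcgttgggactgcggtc
CCNB2 had 11.3 FPKM in cardiomyocytes and 30.5 at D10, and CKS2 had 32.7 in cardiomyocytes and 88.7 at D10. In windows of 250 bases before to 50 bases after the start, TTTGAA was found in 28 of 39 promoters of the mitosis list (71.8%), in 9.69% of promoters of genes past the limit and in 15.4% of all. CCAAT was also found in 28 of the 39 (71.8%), in 37.4% of promoters past the limit and in 35.7% of all. Among 405 promoters of protein-coding genes called lower, 15.1% held TTTGAA and 40.5% held CCAAT. In the S phase list, TTTGAA was found in 1 of 39 promoters (2.56%). The E2F site TTTCCCGC was found in 10 of these 39 (25.6%), in 2.69% of promoters past the limit and in 1.66% of all.

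DNA replication and S phase genes were lower in 10 of 42 cases past the limit and higher in 1 (median -0.72). SLBP, which binds the ends of histone mRNAs, had 17.5 FPKM in cardiomyocytes and 49.8 at D10. MCM7, of the replicative helicase, had 32.04 FPKM in cardiomyocytes and 76.4 at D10. PCNA, the sliding clamp, had 37.5 FPKM in cardiomyocytes and 65.1 at D10, under 2-fold. TYMS, thymidylate synthase, was the higher gene, with 36.2 FPKM in cardiomyocytes, against 15.6 at D10. Histone genes of the clusters copied in S phase were taken by name after values were seen. Of 59 past the limit, 2 were higher and 47 lower (median -1.47). HIST1H3B had 114 FPKM in cardiomyocytes and 352 at D10. The higher ones were HIST1H1A, with 23.4 FPKM in cardiomyocytes and 5.25 at D10, and HIST1H2AD, with 6.61 in cardiomyocytes and 1.01 at D10. Members of these clusters are close copies, so single values are uncertain.

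Genes of cell cycle exit went both ways, 5 of 21 past the limit higher and 4 lower. Of the higher ones, CDKN1A, CDKN2B and CDKN2D passed it only through the cardiomyocyte column. CDKN1A, the p21 inhibitor, had 7.35 FPKM in cardiomyocytes and 0.976 at D10. CDKN2B, another inhibitor, had 8.22 FPKM in cardiomyocytes and 2.31 at D10. CDK4, the kinase that CDKN2B restrains, was lower, with 36.02 FPKM in cardiomyocytes, against 98.7 at D10. The cyclins that bind it stayed under 2-fold. CCND1 had 30.98 FPKM in cardiomyocytes and 28.9 at D10, and CCND2 had 98.2 in cardiomyocytes and 88.5 at D10.

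Among chromatin genes, 2 of 30 past the limit were higher and 9 lower, and 4 of 18 splicing genes were higher and 1 lower. SMARCA2, an ATPase of chromatin remodelling, had 23.3 FPKM in cardiomyocytes and 6.98 at D10, while SMARCA4, the alternative ATPase, had 41.2 in cardiomyocytes and 65.9 at D10. CBX2, a Polycomb subunit of embryos, had 5.23 FPKM in cardiomyocytes and 19.9 at D10. RBM24, a muscle splicing factor, had 129 FPKM in cardiomyocytes and 41.7 at D10. MBNL1, which promotes adult splicing, had 42.2 FPKM in cardiomyocytes, against 15.2 at D10. ESRP1, an epithelial splicing factor, was lower, with 2.102 FPKM in cardiomyocytes and 6.83 at D10. RBM20, the titin splicing factor, had 16.6 FPKM in cardiomyocytes and 23.3 at D10, under 2-fold.

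Most ribosomal protein genes stayed under 2-fold. Of 74 past the limit, 1 was higher and 2 were lower, with a median of -0.48, and 6 of them had a difference above 0. RPS19 and RPS29, of the small subunit, were the lower ones. RPS19 had 605 FPKM in cardiomyocytes and 1347 at D10, and RPS29 had 662 in cardiomyocytes and 1539.6 at D10. RPL28, the higher one, had 328 FPKM in cardiomyocytes and 109 at D10. Of the ribosome biogenesis genes, 0 were higher and 5 of 25 lower (median -0.67). NPM1, a nucleolar protein, had 585 FPKM in cardiomyocytes, against 1637 at D10. Genes commonly used as housekeeping standards had a median of 0.24, with 3 of 16 higher and 0 lower.

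Genes of the BMP, TGF-beta and NOTCH pathways went both ways, 9 of 29 past the limit higher and 9 lower (median -0.05). Among ligands, BMP2 had 157 FPKM in cardiomyocytes and 46.5 at D10, and BMP4 had 7.69 in cardiomyocytes and 26.3 at D10. The antagonist NOG, noggin, had 2.83 FPKM in cardiomyocytes and 11.7 at D10. The targets ID2 and HES1 were lower. ID2 had 132 FPKM in cardiomyocytes and 319 at D10, and HES1 had 15.2 in cardiomyocytes and 59.3 at D10. Of the WNT genes, 4 of 30 were higher and 6 lower. TMEM88, a membrane inhibitor of WNT signalling in cardiac progenitors, had 3.35 FPKM in cardiomyocytes and 42.3 at D10 (-3.32). The ligand WNT2 had 4.53 FPKM in cardiomyocytes and 17.7 at D10. The secreted modulator SFRP2 was higher, with 13.7 FPKM in cardiomyocytes, against 0.592 at D10, and so was the receptor FZD1, with 38.5 FPKM in cardiomyocytes, against 8.18 at D10.

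Immediate early and stress genes were higher in 13 of 20 cases past the limit and lower in 1 (median 1.29). ATF3, a stress-induced factor, had 33.8, 6.09 and 158 FPKM at D10, D15 and day 31. EGR1, an immediate early factor, had 57, 20.3 and 203 FPKM at these points, and JUN 52.9, 28.3 and 140.1 FPKM. All of them had their lowest value of the 3 at D15 and their highest on day 31, after the gradient. FOS had 272 FPKM in cardiomyocytes and 245 at D10, under 2-fold. DDIT3, of the unfolded protein response, was the lower gene, with 13.9 FPKM in cardiomyocytes and 35.8 at D10. Handling of the day 31 cells goes with this result, and its part was not tested.

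Smaller lists on defence and oxidation were mixed. Of antigen presentation and interferon genes, 4 of 17 past the limit were higher and 1 lower (median 0.52). HLA-C, a class I molecule, had 27.6 FPKM in cardiomyocytes and 7.26 at D10. TAPBP, which loads class I molecules with peptide, had 20.3 FPKM in cardiomyocytes, against 3.74 at D10. Of antioxidant genes, 3 of 14 were higher and 1 lower. SOD2, the superoxide dismutase of mitochondria, had 75.9 FPKM in cardiomyocytes and 27.4 at D10. PRDX1, a peroxidase, was the lower gene, with 129.8 FPKM in cardiomyocytes and 660.1 at D10.

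Markers of other cell types were checked in both groups. Of 14 fibroblast and stroma markers, 11 passed the limit, 2 were higher and 2 lower, and none was at 0. They summed to 1185 FPKM in cardiomyocytes and 1135 at D10. Most of both sums came from the collagens COL1A1, COL1A2 and COL3A1, so the sums say little about the other markers. COL1A1, the main collagen of connective tissue, had 238, 733 and 224 FPKM at D10, D15 and day 31. POSTN, periostin, had 62.4 FPKM in cardiomyocytes and 9.497 at D10, and PDGFRA, a receptor of stroma and of cardiac mesoderm, had 31.7 in cardiomyocytes and 139 at D10. Of the smooth muscle markers, 5 of 14 past the limit were higher and 0 lower. They summed to 1635 FPKM in cardiomyocytes and 886 at D10, and embryonic heart muscle is known to make several of them. CNN1, calponin, had 221 FPKM in cardiomyocytes and 68.5 at D10. The part of such cells in any result was not tested.

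Markers of the remaining types were counted in the same way. Of 14 endothelial markers 2 passed the limit, 0 higher and 0 lower, and the list summed to 40.3 FPKM in cardiomyocytes and 40.7 at D10. CDH5, the endothelial cadherin, had 0.834 FPKM in cardiomyocytes and 1.24 at D10. None of 11 blood markers passed. Of 23 endoderm and liver markers 5 passed, 1 higher and 1 lower. ALB, albumin, had 17.8 FPKM in cardiomyocytes and 0.915 at D10, and AFP, its foetal relative, had 16.1 in cardiomyocytes and 19.7 at D10. Of 11 epicardial markers 6 passed, 1 higher and 2 lower. WT1, the defining epicardial factor, had 2.38 FPKM in cardiomyocytes and 5.44 at D10, and LRRN4 had 4.85 in cardiomyocytes and 24.6 at D10. SEMA3D had 16.8 FPKM in cardiomyocytes and 7.67 at D10. Of 13 neural markers 5 passed, 1 higher and 1 lower. NES, nestin, which muscle precursors make too, had 96.4 FPKM in cardiomyocytes and 74.8 at D10. TUBB3, a neuronal tubulin, had 24.2 FPKM in cardiomyocytes and 32.6 at D10. Its entry jumped between columns, with 207 FPKM at D6 and a listed 0 at D8 and at D15, so these values are uncertain. Of 17 skeletal muscle markers 3 passed, 2 higher, while MYOD1, the defining factor, was listed at 0 in cardiomyocytes and at 0.0331 FPKM at D10. Of 12 pluripotent markers 4 passed, 1 higher and 3 lower. The lower ones include LIN28A and DPPA4, described with the embryonic regulators. NANOG, a core pluripotency factor, had 0.6105 FPKM in cardiomyocytes and 0.5003 at D10.

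Matrix genes appeared at both ends. Of the collagen and matrix genes, 13 of 45 past the limit were higher and 5 lower (median 0.47). MGP, which inhibits calcification, had 0.226, 0.218, 0.452, 24.6 and 61.6 FPKM at D6, D8, D10, D15 and day 31 (5.43). HAPLN1, which links hyaluronan in embryonic cardiac jelly, had 5.57 FPKM in cardiomyocytes, against 56.9 at D10. COL2A1, the cartilage collagen, had 58.4 FPKM in cardiomyocytes and 290.3 at D10. LAMA1, the laminin chain of early embryos, had 6.63 FPKM in cardiomyocytes and 78.2 at D10, so it lay on the opposite side from LAMA2. GPC3, a membrane proteoglycan of foetal tissue, had 497, 656 and 66.4 FPKM at D10, D15 and day 31.

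The 20 largest increases among protein-coding genes held several outside these lists. A2M, a plasma protease inhibitor, had 379.6 FPKM in cardiomyocytes and 14.6 at D10 (4.61). FAM5C had 26.5 FPKM in cardiomyocytes and 0.172 at D10. MLIP, a lamin-interacting protein of muscle, had 69.1 FPKM in cardiomyocytes, against 2.87 at D10. MTUS1 had 76.5 FPKM in cardiomyocytes and 3.93 at D10, and TMEM176B had 49 in cardiomyocytes and 1.46 at D10. DUOX2, an oxidase that makes hydrogen peroxide, had 18.3 FPKM in cardiomyocytes and 0.334 at D10. TMEM173, the innate immune adaptor STING, had 43.2 FPKM in cardiomyocytes and 2.14 at D10. MAN1C1, a mannosidase of the Golgi, had 83.5 FPKM in cardiomyocytes, against 5.13 at D10.

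The 20 largest decreases likewise held further genes. SHISA3 had 0.748 FPKM in cardiomyocytes and 20.9 at D10, and SHISA2 had 5.94 in cardiomyocytes and 60.03 at D10; their family is known from frog embryos for holding back WNT and FGF receptors. WFIKKN1, a protein with protease inhibitor domains, had 0.786 FPKM in cardiomyocytes and 15.8 at D10. Also among them were BAALC, CNTNAP4, IGFN1, LCP1, CYYR1, SVEP1 and TAC3, with differences between -3.20 and -2.93. IGFN1 had 0.691 FPKM at D8, and with D8 in place of D10 its difference was -0.58.

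Among genes of other types, LINC00881 had the largest difference (5.74), with 0.589, 0.944, 1.398, 29.6 and 127 FPKM at D6, D8, D10, D15 and day 31. RP11-532N4.2 had 36.5 FPKM in cardiomyocytes and 0.376 at D10. LINC00982 had 32.4 FPKM in cardiomyocytes and 0.994 at D10, and HIF1A-AS2 had 33.1 in cardiomyocytes and 1.93 at D10. RP1-151F17.2 had 11.1 FPKM in cardiomyocytes and 0.467 at D10. The largest decreases included small nucleolar RNAs, which guide modification of ribosomal RNA. SNORA71D had 9.27 FPKM in cardiomyocytes and 251 at D10, and SNORA80B had 14.3 in cardiomyocytes and 218 at D10. SNHG15, a host gene of such an RNA, had 9.85 FPKM in cardiomyocytes, against 85.5 at D10. RP11-384F7.2 had 2.898 FPKM in cardiomyocytes and 29.6 at D10, and RP11-834C11.4 had 2.66 in cardiomyocytes and 26.98 at D10. The strand setting is not given in the sources used here, so an antisense RNA and its partner cannot be told apart.

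MicroRNA genes, chosen after their values were seen, are shown with the mature sequences they carry, because the seed (bases 2 to 8, in capitals) sets which mRNAs a microRNA pairs with. MIR1-2 carries miR-1, a microRNA of heart and skeletal muscle, MIR145 carries miR-145 of smooth muscle, and MIR17HG is the host of a cluster that favours proliferation. The sequences are from RefSeq on GRCh38.p14. They lie at chr18:21829015-21829036 (minus strand) for miR-1-3p, chr5:149430661-149430683 (plus strand) for miR-145-5p, chr13:91350618-91350640 (plus strand) for miR-17-5p and chr13:91351072-91351094 (plus strand) for miR-20a-5p.
hsa-miR-1-3p: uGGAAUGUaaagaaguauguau
hsa-miR-145-5p: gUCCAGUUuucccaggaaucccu
hsa-miR-17-5p: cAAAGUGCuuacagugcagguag
hsa-miR-20a-5p: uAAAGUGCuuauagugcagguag
MIR1-2 had 5.29, 10.5, 8.65, 16.96 and 64.2 FPKM at D6, D8, D10, D15 and day 31. MIR145 had 17.6 FPKM in cardiomyocytes and 6.69 at D10. MIR17HG had 3.11 FPKM in cardiomyocytes, against 23.3 at D10, and miR-17-5p and miR-20a-5p, which it carries, share the seed AAAGUGC. These values are of long or precursor RNA and not of mature microRNAs.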

How the data were processed

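The authors deposited 1 table of the time course, with an FPKM value per gene and time point. Per the submitters' processing notes, TopHat2 2.0.8b, Bowtie2 2.1.0.0, Cufflinks and the build hg19 were used; the unit was inferred from that pipeline and the values. The sources used here do not give the annotation, the strand setting, the scaling, the way the 2 libraries were pooled or the depth, nor whether the libraries are separate cultures. Per the labels' protocols, 500 ng of RNA was depleted of ribosomal RNA, amplified in 10 cycles and read in pairs of 100 nt. The 2 sort tables were not used here.

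Members, lists and comparisons were chosen with earlier results of these data known, and 10 of the lists after single values were seen. Differences were computed in Python 3.11.15 (numpy 2.4.6, pandas 2.3.3, matplotlib 3.10.9) as log2(FPKM + 1), cardiomyocytes minus D10, with a limit of 5 FPKM and a call at 1; the calls were checked on simulated data. Alternatives changed the pseudocount (0.1), the limit (1 FPKM, none, or both columns), the scaling, the genes kept, the earlier column and the call. The text names list members, the 20 largest differences each way among protein-coding genes and 5 each way among others, without genes at 0 in one column or jumping by 3 or more between neighbouring columns; CCDC141 and the microRNA genes were chosen after their values were seen. Gene types came from GENCODE 29 and RefSeq synonyms by name (93.9% of genes past the limit matched). Some genes that these rules name are not reported here.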

Additional observations from a re-analysis of the deposited data

How the results depend on the processing

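No paired analysis was possible because the columns pool the libraries of each group, and for the same reason leaving out each replicate was not run. With 5 FPKM asked of both columns, 742 genes were higher and 415 lower, because fewer genes were tested. At 4-fold, 390 were higher and 213 lower. With D8 in place of D10, 1253 genes were lower, the TNNI3 share differed by 2.05 percentage points against 0.277, the MYL3 share by 25.9 against 16.7, and the ACTA1 share by -0.38 against 4.01; the cause was not tested. With D15 in place of cardiomyocytes, an alternative added after the data were seen, 871 genes were higher and 1914 lower, and the cause was not tested. Rescaling to the protein-coding total gave 1023 higher and 1124 lower (47.65% higher of those called, against 63.43%). The other settings kept both counts within 1.5 times, including a second added one without the 13 mitochondrial mRNAs (1305 higher, 760 lower). No list median of 2-fold or more changed sign; over lists and settings, 247 medians kept their side of the 2-fold limit, 5 passed it in addition and 8 no longer did. The depth of the libraries is not given, so low values carry an error of unknown size.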

Other observations

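Further gene groups were noticed while the values were read, and their lists were drawn up then, so their counts describe the data and support nothing by themselves. Genes that respond to low oxygen were higher in cardiomyocytes in 14 of 25 cases past the limit and lower in 0 (median log2 difference 1.18). EGLN3, a prolyl hydroxylase that senses oxygen, had 59.01 FPKM in cardiomyocytes and 7.86 at D10. BNIP3, a regulator of mitochondrial turnover, had 324 FPKM in cardiomyocytes and 82.1 at D10. HIF3A had 67.6 FPKM in cardiomyocytes and 8.76 at D10, while HIF1A, the central factor, had 88.97 in cardiomyocytes and 85.8 at D10. Caveolae, the small pits of the muscle cell membrane, had 4 of 6 genes past the 5 FPKM limit higher (median 1.57). These 4 passed it only through the cardiomyocyte column. With a limit of 1 FPKM, 4 of 8 were higher and 2 lower, with a median of 0.98. CAV1 had 9.62 FPKM in cardiomyocytes and 0.614 at D10, and PTRF, the coat protein of these pits, had 54.4 in cardiomyocytes and 3.97 at D10. The lower genes were SDPR, another coat protein, with 0.615 FPKM in cardiomyocytes and 2.62 at D10, and MURC, its muscle relative, with 1.54 in cardiomyocytes and 4.09 at D10. All 3 nuclear factor I genes past the limit were higher, but they passed it only through the cardiomyocyte column, so the count adds nothing to their values. NFIA had 37.1 FPKM in cardiomyocytes and 4.59 at D10. NFIB had 17.2 FPKM in cardiomyocytes and 3.33 at D10, and NFIC had 22.4 in cardiomyocytes and 3.67 at D10. Of complement and protease inhibitor genes, 5 of 10 were higher and 1 lower. CFI, a complement protease, had 26.9 FPKM in cardiomyocytes and 1.22 at D10. C4A had 15.95 FPKM in cardiomyocytes and 0.251 at D10, uncertain because C4B is a near-identical copy. Of muscle membrane genes, 11 of 16 were higher (median 2.16), most of which passed the limit only through the cardiomyocyte column. POPDC2, a cyclic AMP-binding protein, passed it in both, with 148 FPKM in cardiomyocytes and 16.3 at D10.

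On the lower side stood genes that make or import serine and other amino acids, 14 of 27 past the limit, with 0 higher (median -1.03). PHGDH, the first enzyme of serine synthesis, had 27.9 FPKM in cardiomyocytes and 94.8 at D10. PSAT1, the next, had 14.1 FPKM in cardiomyocytes and 59.7 at D10. ASNS, asparagine synthetase, had 19.6 FPKM in cardiomyocytes and 59.5 at D10. Hedgehog pathway genes were lower in 4 of 10 cases and higher in 0. PTCH1, receptor and target of the pathway, had 7.13 FPKM in cardiomyocytes and 49.5 at D10. GLI1, a target, had 1.16 FPKM in cardiomyocytes and 9.09 at D10. Of FGF and ERK feedback genes, 2 of 15 were higher and 2 lower. DUSP6, a phosphatase induced by ERK, had 22.1 FPKM in cardiomyocytes and 98.03 at D10. FGFR3 had 4.82 FPKM in cardiomyocytes and 38.8 at D10.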
